A study of Homo sapiens with 3 samples.

Results

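The miR-17~92 cluster and its paralog miR-106b~25 were followed through 3 small-RNA libraries of the established human melanoma line SK-MEL-2. The members were 10 of the 2588 mature miRNAs listed for each library, taken by name: hsa-miR-17-5p, hsa-miR-18a-5p, hsa-miR-19a-3p, hsa-miR-20a-5p, hsa-miR-19b-3p and hsa-miR-92a-3p of miR-17~92, and hsa-miR-106b-5p, hsa-miR-106b-3p, hsa-miR-93-5p and hsa-miR-25-3p of miR-106b~25. One culture was untreated (control), and the others were exposed to a jet of nonthermal plasma, a partly ionised gas near room temperature, for 3 min or 5 min. All 3 carried the Day 2 label and came from the same line, grown in RPMI-1640 with 10% FBS and antibiotics. There was 1 library per group, so no difference below has a replicate check or a p-value, and each ratio compares libraries rather than conditions.

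Both clusters are polycistrons: a single primary transcript holds several hairpins, and the Drosha and Dicer enzymes cut each hairpin into mature arms. miR-17~92 is transcribed as MIR17HG, a direct target of MYC and of E2F factors, and is known as an oncogenic cluster in lymphoma and in many solid tumours. miR-106b~25 is made from an intron of MCM7, which encodes a subunit of the replicative helicase, so its output is tied to a gene of proliferating cells. Members with the same seed (bases 2 to 8 of the mature miRNA) pair with largely the same mRNAs.

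The mature sequences are shown because the members are grouped by seed below and several differ from each other by few bases. All 10 members were matched in RefSeq (GRCh38.p14), from which the sequences are given 5′ to 3′ with the seed in capitals.
miR-17-5p: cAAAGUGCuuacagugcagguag
miR-20a-5p: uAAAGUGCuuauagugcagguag
miR-106b-5p: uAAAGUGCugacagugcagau
miR-93-5p: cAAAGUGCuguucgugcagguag
miR-18a-5p: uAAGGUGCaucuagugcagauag
miR-19a-3p: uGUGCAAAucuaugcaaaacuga
miR-19b-3p: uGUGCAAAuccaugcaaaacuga
miR-92a-3p: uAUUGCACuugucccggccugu
miR-25-3p: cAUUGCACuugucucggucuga
miR-106b-3p: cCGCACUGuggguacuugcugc
The first 4 share the miR-17 seed, miR-19a-3p and miR-19b-3p the miR-19 seed, and miR-92a-3p and miR-25-3p the miR-92 seed. miR-18a-5p and miR-106b-3p each have a seed that no other member has.

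The 6 hairpins of miR-17~92 occupy chr13:91350605-91351391 on the plus strand (GRCh38.p14), a span of 787 bases. They lie inside MIR17HG and each overlaps an exon of at least 1 of its GENCODE v29 transcripts. The 3 hairpins of miR-106b~25 occupy chr7:100093560-100094074 on the minus strand, a span of 515 bases, inside an intron of MCM7. A further paralog cluster, which begins with MIR106A and ends with MIR363, lies at chrX:134169378-134170278 on the minus strand. It carries second hairpins for miR-19b-3p and miR-92a-3p with the same mature sequences, so the counts of these 2 members cannot be assigned to chromosome 13 or to chromosome X.

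Several members differ from a paralog by a base or so, and reads can be shared between such rows. With positions counted from 1 at the 5′ end, miR-106a-5p differs from miR-17-5p by C1A, miR-18b-5p from miR-18a-5p by A20U, and miR-20b-5p from miR-20a-5p by U1C and U10C. Within the members, miR-19b-3p differs from miR-19a-3p by U11C, and miR-20a-5p from miR-17-5p by C1U and C12U. How reads that match several rows were counted is not given in the sources used here, so the separate values of these pairs are uncertain.

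Library totals ranged from 615645 counts (5 min) through 966943 (3 min) to 1045482 (control), and the 231 miRNAs averaging 20 counts or more were compared; all 10 members passed this filter. Levels are in CPM (read counts scaled to a common library size) after TMM scaling, which sets libraries to a common level from the bulk of the miRNAs. A fold is the ratio of 2 such levels. Its 95% interval is exact (Clopper-Pearson) and covers counting error only; the labels mention no molecular identifiers, so PCR copies may count as separate reads. For the melanocytic miR-211-5p the libraries, in the order control, 3 min, 5 min used throughout, held 128, 97 and 65 counts, and the 7 melanocyte-lineage markers summed to 3877, 4250 and 3964 CPM, while 4 of 7 melanocyte-lineage markers (miR-508-3p, miR-509-3p, miR-513a-5p and miR-514a-3p) were at 0 in all 3 libraries. The sum rested on miR-204-5p and miR-146a-5p, whose 5 min log2 ratios were -0.30 and 0.54. Red blood cells are rich in several members, and the 8 blood markers summed to 18, 22 and 16 counts, with miR-223-3p at 0 throughout. Epithelial markers summed to 15, 24 and 40 counts and muscle markers to 1, 3 and 15; both sums were highest at 5 min, the liver marker miR-122-5p had 114, 117 and 76 counts, and the part of these RNAs in the results below was not tested. In bulk RNA, fewer cells of a kind and less RNA per cell cannot be told apart.

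In untreated cells the 10 members together took 0.913% of the library, and their levels ran over a wide range. miR-25-3p, a repressor of the pro-apoptotic BCL2L11, was highest at 3837 CPM (exact Poisson 95% interval 3719 to 3957), at rank 30 of the 231 compared miRNAs. miR-92a-3p, which represses integrin alpha-5 in endothelial cells, followed at 2479 CPM (2384 to 2576), at rank 39. These carriers of the miR-92 seed held 69.2% of the member counts between them. The next were miR-106b-3p at 816 CPM, miR-93-5p at 683 CPM, miR-20a-5p at 586 CPM and miR-17-5p at 442 CPM. The least abundant were miR-106b-5p at 108 CPM, miR-19a-3p at 81.3 CPM, miR-19b-3p at 63.1 CPM and miR-18a-5p at 26.8 CPM. The intervals of neighbours in this order overlapped for miR-93-5p with miR-20a-5p, for miR-106b-5p with miR-19a-3p and for miR-19a-3p with miR-19b-3p, and no others did. All mature sequences are 21 to 23 bases long, but adapter ligation favours some RNA ends, so counts of different miRNAs are not molar amounts.

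**Figure D1:**
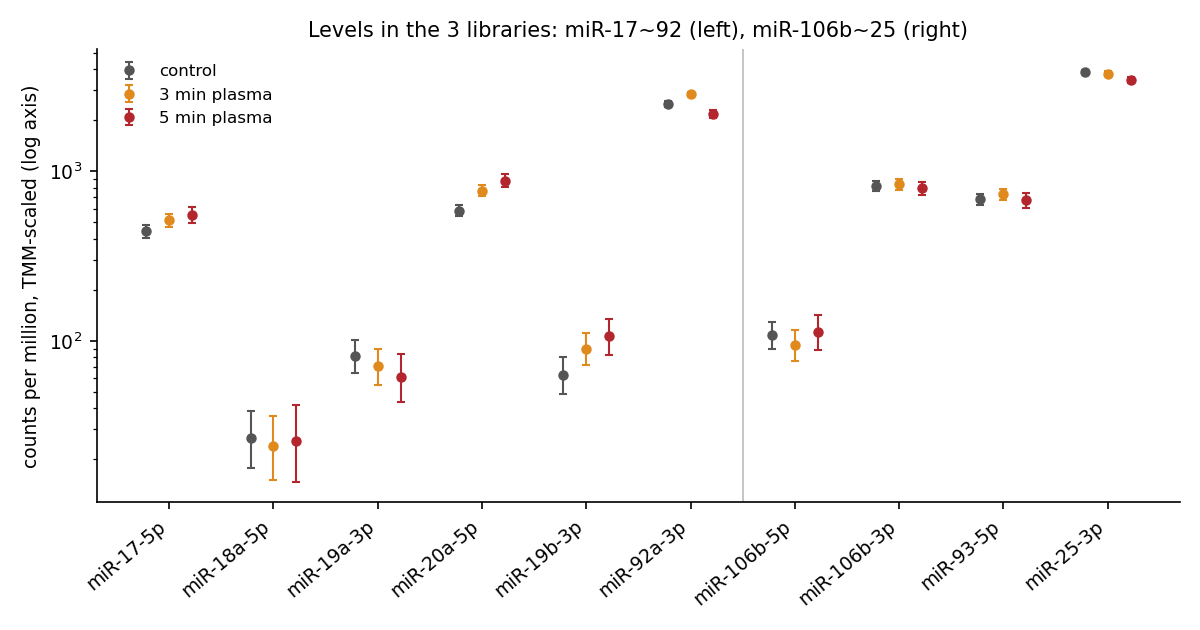
Level of each member (CPM, log axis) in the control, 3 min and 5 min libraries, with exact Poisson 95% intervals; each point is 1 library. The points of miR-20a-5p and miR-19b-3p step upward through the 3 libraries, with overlapping 3 min and 5 min intervals. Those of miR-25-3p step down, and miR-92a-3p is highest at 3 min.

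Read counts of members of a cluster differed widely, with the limit that ligation sets on such ratios. miR-92a-3p, with its further hairpin on chromosome X, had 92.6 reads for each read of miR-18a-5p in the control, 118 at 3 min and 84.2 at 5 min. In miR-106b~25, miR-25-3p had 35.5, 39.5 and 30.6 reads for each read of miR-106b-5p. The order from miR-25-3p to miR-92a-3p to the rest held in each of the 3 libraries. Lower down, miR-20a-5p moved past miR-93-5p at 3 min and past miR-106b-3p at 5 min, with overlapping intervals in both cases, and went from rank 80 to 70 to 64 of 231.

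After 3 min of plasma, miR-17~92 stood slightly above the untreated library and miR-106b~25, with the scaling used here, level with it. The summed miR-17~92 members had 3678, 4306 and 3795 CPM in control, 3 min and 5 min, a 3 min fold of 1.17 (1.12 to 1.22). The summed miR-106b~25 members had 5444, 5410.5 and 5024 CPM, a 3 min fold of 0.994 (0.957 to 1.03). As a log2 ratio this was -0.0088 (-0.0634 to 0.0457). Scaling over all listed miRNAs put it outside that interval, at -0.0665 (TMM) or -0.0824 (DESeq2). Reads of the first cluster per read of the second, which need no scaling between libraries, were 1.18-fold higher at 3 min (exact interval of the odds ratio 1.11 to 1.25).

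No member reached 1.5-fold at 3 min in either direction, against 6.93% of the 231 compared miRNAs upward and 5.19% downward, and none reached 2-fold (2.16% and 0.866%). Counting intervals lay above 1 for 4 members and below 1 for 0, where 23.4% and 14.3% of the compared miRNAs did so. All 4 belong to miR-17~92: miR-19b-3p at 1.42-fold (1.02 to 1.99), miR-20a-5p at 1.31-fold (1.18 to 1.46), miR-17-5p at 1.17-fold (1.03 to 1.33) and miR-92a-3p at 1.14-fold (1.08 to 1.21). The median log2 ratio of the members was 0.07, beside 0.05 over all compared miRNAs. TMM or DESeq2 over all listed miRNAs shifts each 3 min log2 ratio by -0.06 or -0.07. Either shift brings 0 inside the log2 intervals of miR-17-5p and miR-19b-3p, which began at 0.04 and 0.03. It also puts that of miR-25-3p, which ended at 0.03, below 0. The interval shares over all compared miRNAs were not recounted under these shifts.

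After 5 min of plasma the members differed among themselves in direction. miR-20a-5p, which together with miR-17-5p represses CDKN1A and E2F1, had 613, 737 and 547 counts, or 586, 769 and 881 CPM. Its level was therefore lowest in the control and highest after 5 min, and the 3 Poisson intervals (541 to 634, 714 to 826 and 809 to 958 CPM) left the control apart from both exposures. The 5 min fold was 1.504 (1.34 to 1.69).

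miR-19b-3p had 66, 86 and 66 counts, or 63.1, 89.7 and 106.3 CPM. The 5 min fold was 1.69 (1.18 to 2.41), the largest among the members and on far fewer reads than that of miR-20a-5p. miR-17-5p had 462, 494 and 342 counts, or 442, 515 and 551 CPM, a 5 min fold of 1.25 (1.08 to 1.44). These 3 members had levels in the order control, 3 min, 5 min, as did 34.2% of all compared miRNAs. The step from 3 min to 5 min was 1.07-fold (0.929 to 1.23) for miR-17-5p and 1.185-fold (0.847 to 1.65) for miR-19b-3p. Both intervals included 1, and the sign of the miR-17-5p step changed with the scaling.

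On the other side, miR-92a-3p had 2593, 2719 and 1347 counts, or 2479, 2837 and 2169.9 CPM. It was above control at 3 min and below it at 5 min, where it was 1.14-fold lower (1.07 to 1.22). miR-25-3p had 4013, 3594 and 2140 counts, or 3837, 3749.6 and 3447 CPM, and was 1.11-fold lower at 5 min (1.06 to 1.17). miR-92a-3p and miR-25-3p share the miR-92 seed, and their summed 5 min fold was 0.889 (0.853 to 0.927).

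With the scaling used here, the other 5 members had 5 min intervals that included 1. miR-19a-3p, which differs from miR-19b-3p by U11C, had 85, 68 and 38 counts and a 5 min log2 ratio of -0.41 (-1.001 to 0.16). miR-18a-5p, a repressor of CTGF, had 28, 23 and 16 counts and a ratio of -0.05 (-1.04 to 0.88). miR-93-5p stood at -0.02 (-0.20 to 0.15), miR-106b-3p at -0.04 (-0.21 to 0.12) and miR-106b-5p at 0.06 (-0.39 to 0.50). For miR-18a-5p a 1.5-fold difference either way was not detectable at this depth, since its interval reached past it on both sides.

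At 5 min the 1.5-fold rule was met upward by 2 members (miR-20a-5p and miR-19b-3p) and downward by 0, where 17.3% of all compared miRNAs were higher and 11.7% lower. Intervals lay above 1 for 3 members and below 1 for 2, beside 29.0% and 26.0% of all compared miRNAs, and both shares of the 10 lie near that background. The median log2 ratio was -0.03 over the members and 0.05 over all compared miRNAs. No member reached 2-fold at 5 min, as 9.52% of all compared miRNAs did upward and 3.46% downward.

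Scaling set how many members passed the 1.5-fold rule. Over 7 scalings the 5 min fold of miR-20a-5p ran from 1.30 to 1.52 and reached 1.5 in 3 of them, and that of miR-19b-3p ran from 1.46 to 1.698 and reached 1.5 in 5. Of the 7, TMM over only the libraries compared gave the same 5 min ratios as the scaling used above. Both counts therefore hold that result more than once. miR-17-5p, miR-20a-5p and miR-19b-3p were above control in all 7, and miR-92a-3p and miR-25-3p below it in all 7. The sign of miR-106b-5p changed with the scaling. Which intervals excluded 1 depended on it as well. TMM or DESeq2 over all listed miRNAs shifts each 5 min log2 ratio by -0.17 or -0.21. Either shift brings 0 inside the log2 interval of miR-17-5p, which began at 0.11. It also puts those of miR-19a-3p, miR-93-5p and miR-106b-3p, which ended at 0.16, 0.15 and 0.12, below 0. The interval shares over all compared miRNAs were not recounted under these shifts.

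**Figure D2:**
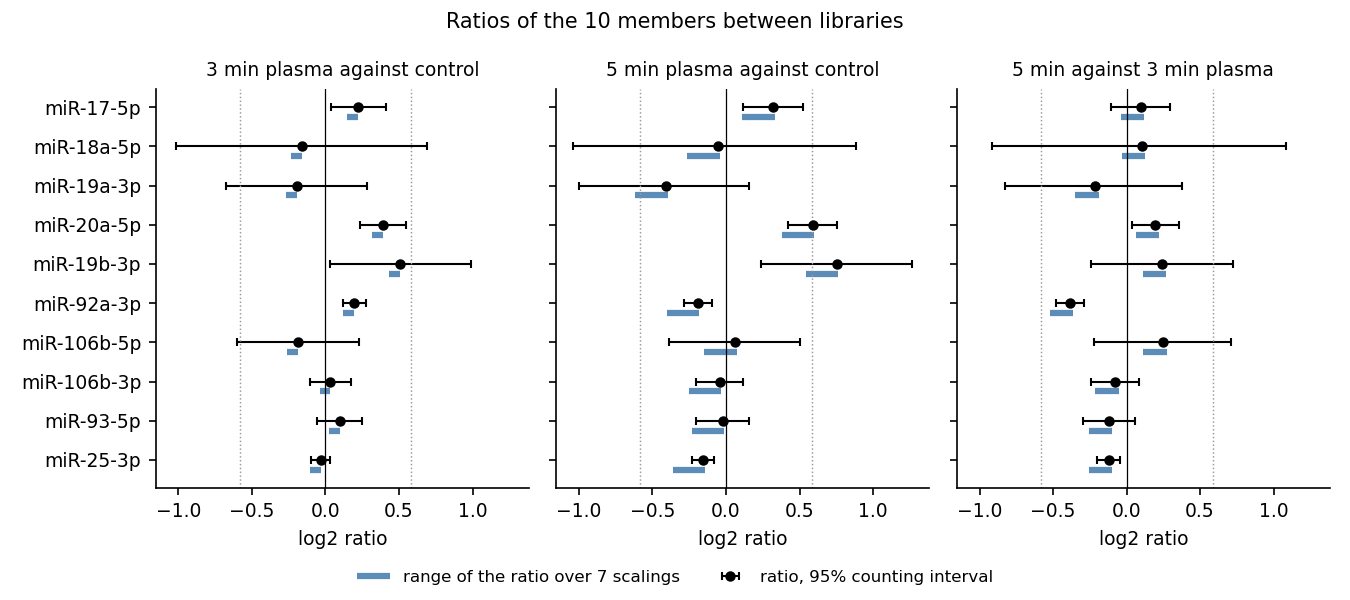
Log2 ratio of each member in the 3 comparisons (black points, 95% counting intervals) with its range over 7 scalings (blue bars); dotted lines mark 1.5-fold either way. At 5 min the points of miR-20a-5p and miR-19b-3p lie at 0.59 and 0.75, and those of miR-92a-3p and miR-25-3p at -0.19 and -0.15.

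**Figure D3:**
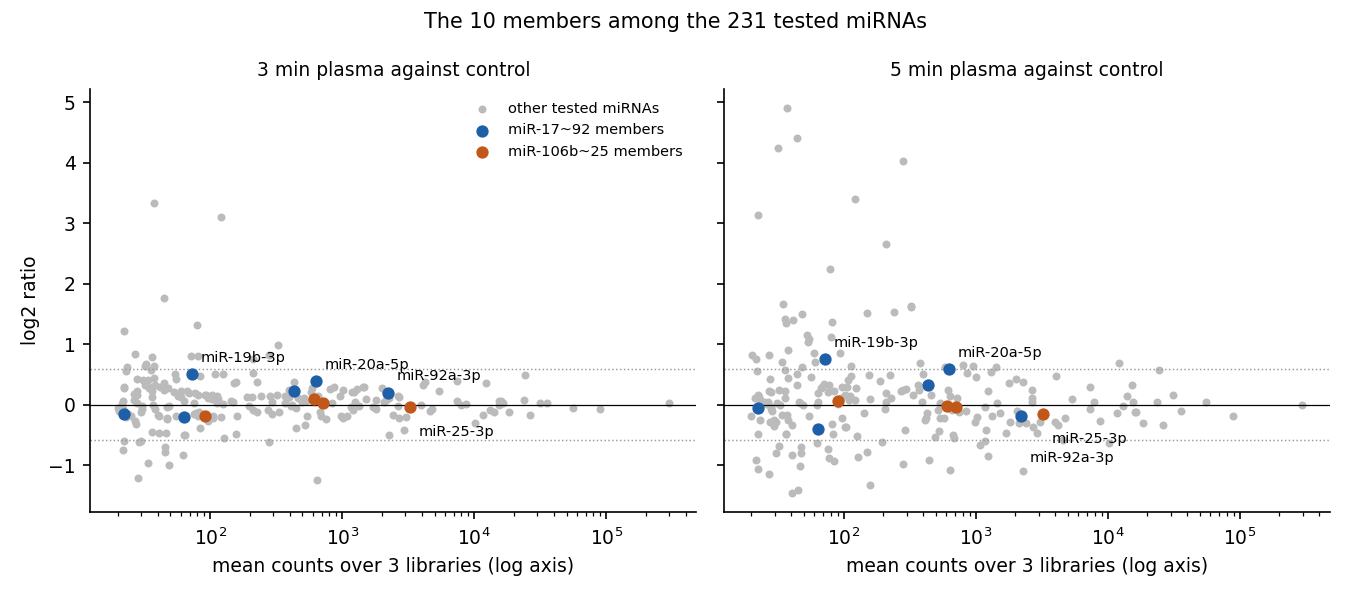
Log2 ratio against mean counts (log axis) for the 231 compared miRNAs at 3 min (left) and 5 min (right), with miR-17~92 members in blue and miR-106b~25 members in orange; both panels use the same control library. All 10 members lie inside the dotted 1.5-fold lines at 3 min, and miR-20a-5p and miR-19b-3p reach past the upper line at 5 min.

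Shares within the cluster need no scaling between libraries. They rest on the same counts, and a smaller part of miR-92a-3p by itself enlarges the parts of the others. At 5 min the odds within miR-17~92 had intervals above 1 for miR-17-5p, miR-20a-5p and miR-19b-3p and below 1 for miR-92a-3p. At 3 min only miR-20a-5p had an interval away from 1, with odds of 1.15 (1.02 to 1.29). miR-92a-3p took 67.4% of the miR-17~92 member counts in the control (exact interval 65.9 to 68.9), 65.9% at 3 min (64.4 to 67.3) and 57.2% at 5 min (55.1 to 59.2). miR-20a-5p took 15.9% (14.8 to 17.1), 17.9% (16.7 to 19.1) and 23.2% (21.5 to 24.98). miR-17-5p took 12.0%, 11.97% and 14.5%, and miR-19b-3p 1.72%, 2.08% and 2.80%. The 5 min library was thus the one that differed most in make-up, with a smaller part of miR-92a-3p and a larger part of miR-20a-5p.

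Set directly against each other, miR-20a-5p had 0.236 reads per read of miR-92a-3p in the control, 0.271 at 3 min and 0.406 at 5 min. The odds ratio was 1.72 (1.501 to 1.97) for 5 min against control and 1.15 (1.02 to 1.30) for 3 min. At 5 min miR-20a-5p stood above control and miR-92a-3p below it, so the 5 min odds ratio describes a difference already seen. The hairpins of this pair lie on the same primary transcript from chromosome 13, with MIR92A2 on chromosome X as a further source of miR-92a-3p. Without miR-92a-3p the miR-17~92 sum was 1.23-fold above control at 3 min (1.13 to 1.32) and 1.36-fold at 5 min (1.25 to 1.47). The whole sum at 5 min was 1.03-fold (0.980 to 1.09), with a sign that changed with the scaling. miR-92a-3p was left out of the sum with its lower 5 min value known, so the higher 5 min fold of the rest follows from that choice and is a description.

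Shares within miR-106b~25 were more even. miR-25-3p took 70.5% of its member counts in the control (69.3 to 71.7), 69.3% at 3 min (68.0 to 70.6) and 68.6% at 5 min (67.0 to 70.2). miR-106b-3p took 14.998%, 15.4% and 15.8%, miR-93-5p 12.5%, 13.5% and 13.4%, and miR-106b-5p 1.98%, 1.75% and 2.24%. In this cluster no member's odds against the other 3 had an interval away from 1 in any of the 3 comparisons.

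**Figure D4:**
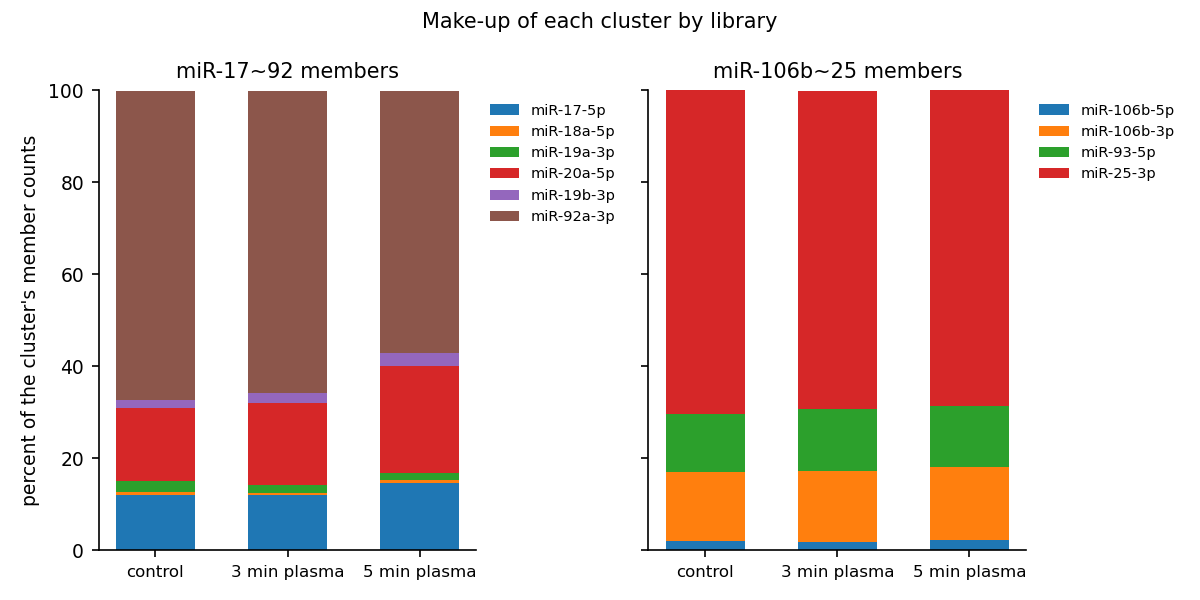
Share of each member in the summed member counts of miR-17~92 (left) and miR-106b~25 (right), in percent, for the 3 libraries. The miR-92a-3p part of miR-17~92 is 67.4% in the control and 57.2% at 5 min, while miR-25-3p stays between 68.6% and 70.5% of miR-106b~25.

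The miR-17 seed occurs in both clusters, which allowed the carriers to be set side by side. Those on chromosome 13, miR-17-5p and miR-20a-5p, summed to 1028, 1284 and 1432 CPM in control, 3 min and 5 min, a 5 min fold of 1.39 (1.27 to 1.52). Those on chromosome 7, miR-93-5p and miR-106b-5p, which also repress CDKN1A, summed to 791, 825 and 785 CPM, a 5 min fold of 0.992 (0.885 to 1.11). Reads of the first pair per read of the second were 1.40-fold higher at 5 min than in the control (1.21 to 1.62) and 1.20-fold higher at 3 min (1.05 to 1.36). This split of the seed group was chosen after the values were seen. All 4 carriers together had a 5 min fold of 1.22 (1.14 to 1.31), which rested on the chromosome 13 pair.

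The carriers of the miR-19 seed diverged too. miR-19b-3p had 0.776 reads per read of miR-19a-3p in the control, 1.26 at 3 min and 1.74 at 5 min, with an odds ratio of 2.24 (1.30 to 3.86) for 5 min against control. Their sum had 151, 154 and 104 counts and a 5 min fold of 1.16 (0.895 to 1.4996), an interval that included 1. Since U11C is the 1 difference between the mature sequences, this divergence is sensitive to how reads were assigned, and that was not tested.

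Set against each other, the plasma libraries stood furthest apart in miR-92a-3p, which was 1.31-fold lower at 5 min than at 3 min (1.22 to 1.40). miR-25-3p was 1.09-fold lower (1.03 to 1.15) and miR-20a-5p 1.15-fold higher (1.02 to 1.28). The other 7 members had intervals that included 1. Intervals thus lay above 1 for 1 member and below 1 for 2, beside 25.1% and 24.7% of all compared miRNAs. No member reached 1.5-fold, where 13.0% of all compared miRNAs did so upward and 8.66% downward, and none reached 2-fold (6.49% and 0.866%). The summed folds were 0.881 (0.838 to 0.927) for miR-17~92 and 0.929 (0.888 to 0.971) for miR-106b~25.

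The balance of hairpin arms was the feature that set MIR106B and MIR18A apart from the other member hairpins, which is why their hairpins are shown, from RefSeq (GRCh38.p14), with both mature arms in capitals. MIR106B lies at chr7:100093993-100094074 (minus strand) and MIR18A at chr13:91350751-91350821 (plus strand).
MIR106B: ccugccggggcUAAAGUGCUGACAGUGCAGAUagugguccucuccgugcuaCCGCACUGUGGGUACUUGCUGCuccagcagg
MIR18A: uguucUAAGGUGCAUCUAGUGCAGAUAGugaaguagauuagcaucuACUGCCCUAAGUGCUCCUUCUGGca
In each, the first capital stretch is the 5p arm, which carries the seed of the miR-17 or miR-18 group, and the second is the 3p arm.

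From MIR106B, the 3p arm was the abundant one. miR-106b-5p made up 11.7% of the reads of both arms in the control (exact interval 9.73 to 13.9), 10.2% at 3 min (8.29 to 12.4) and 12.5% at 5 min (9.84 to 15.5). The 3p arm thus had 7.56, 8.80 and 7.03 reads per 5p read. Odds of the 5p arm at 5 min against control were 1.08 (0.770 to 1.49), so the intervals of the 3 libraries overlapped.

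From MIR18A, the arms were nearly balanced. miR-18a-5p had 28, 23 and 16 counts and miR-18a-3p 41, 37 and 14, a 5p share of 40.6% (28.9 to 53.1), 38.3% (26.1 to 51.8) and 53.3% (34.3 to 71.7). miR-18a-3p had a 5 min log2 ratio of -0.80 (-1.79 to 0.11), an interval that included 0.

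All other member hairpins gave almost only the listed arm. miR-17-5p made up 98.9%, 98.2% and 99.1% of its hairpin's reads, and miR-93-5p 98.5%, 99.0% and 99.3%. miR-20a-3p had 0 counts beside 613, 737 and 547 of miR-20a-5p. With 3 counts taken as the limit for a 0, this allows an arm share of up to 0.489%, 0.407% and 0.548%. miR-25-5p had 0 counts beside 4013, 3594 and 2140 of miR-25-3p, which allows up to 0.0748%, 0.0835% and 0.140%. For miR-19a, miR-19b and miR-92a the 5p arms had at most 1 count in any library.

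**Figure D5:**
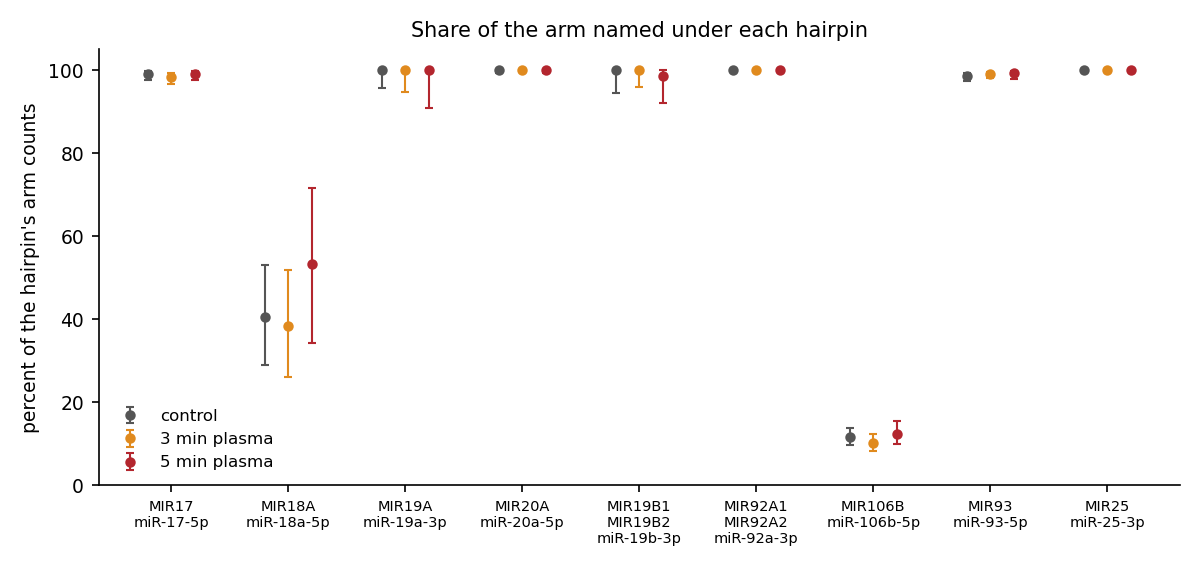
Share of the named arm in the reads of both arms of each member hairpin, in percent, with exact 95% intervals, for the 3 libraries. MIR106B lies near 10.2% to 12.5% and MIR18A between 38.3% and 53.3%, while the others lie at 98.2% or above.

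Of the X-linked paralog cluster, 1 of 4 miRNAs was abundant enough to compare. miR-106a-5p had 39, 42 and 27 counts and a 5 min fold of 1.17 (0.687 to 1.95). miR-18b-5p had 5, 4 and 0 counts, miR-20b-5p 1, 2 and 2, and miR-363-3p 3, 5 and 1. These rows are scarce beside their near-identical relatives on chromosome 13: reads of miR-20a-5p with miR-20b-5p summed gave a 5 min fold of 1.51 (1.34 to 1.69), and miR-17-5p with miR-106a-5p 1.24 (1.08 to 1.42).

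Outside these 3 clusters, 6 listed miRNAs carried a member seed and 2 of them passed the count filter. Seeds were read for the 2281 of 2588 listed miRNAs, and 206 of 231 compared ones, that matched RefSeq. Further carriers may therefore be missed. miR-92b-3p, with the miR-92 seed, had 109, 92 and 46 counts and a 5 min log2 ratio of -0.49 (-1.02 to 0.02). miR-32-5p, with the same seed, had 109, 108 and 70 counts and 0.11 (-0.34 to 0.56). miR-367-3p, miR-526b-3p and miR-519d-3p had 0 counts in all 3 libraries, and miR-4735-3p had 1, 1 and 0.

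MYC is also known to repress a set of miRNAs, of which 16 of 19 listed ones passed the filter. At 5 min 3 of the 16 were 1.5-fold or more above control and 0 below, where 17.3% of all compared miRNAs were above and 11.7% below, a share of the list near that background. The median log2 ratio was 0.13, beside 0.05 over all compared miRNAs. The 3 were miR-29c-3p at 0.91, miR-29a-3p at 0.69 and miR-30b-5p at 0.68. Ratios of miR-146a-5p, miR-16-5p, miR-29b-3p and miR-26b-5p were 0.54, 0.50, 0.26 and 0.24. Those of miR-30e-5p, miR-30c-5p, let-7g-5p, let-7f-5p, miR-23b-3p and miR-22-3p were 0.15, 0.11, 0.05, 0.05, 0.05 and 0.03. miR-24-3p, miR-26a-5p and let-7a-5p stood at -0.02, -0.11 and -0.13. Scaling over all listed miRNAs shifts each of these 5 min ratios by -0.17 (TMM) or -0.21 (DESeq2), which puts the list's median below 0. The same shifts put the median over all compared miRNAs at -0.12 and -0.16, so the list's place beside that median is unchanged. At 3 min 0 of the 16 were 1.5-fold away, where 6.93% of all compared miRNAs were higher and 5.19% lower, and the median was 0.10, beside 0.05.

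Finally, the miRNAs closest in pattern were sought among 110 others averaging 100 counts or more, by Euclidean distance in the pair of log2 ratios (3 min and 5 min against the shared control). Other arms of the member hairpins, the X-linked paralogs, the other miRNAs with a member seed and the MYC-repressed list were not candidates. Some of them may lie as near as those named here. Nearest to the summed miR-17-seed members, at 0.21 and 0.29, were miR-146b-5p at distance 0.05 (0.21 and 0.23), miR-126-3p at 0.08 (0.14 and 0.25) and miR-181d-5p at 0.09 (0.14 and 0.24). Nearest to the summed miR-92-seed members, at 0.06 and -0.17, were miR-28-5p at distance 0.03 (0.06 and -0.14), miR-335-3p at 0.05 (0.06 and -0.22) and miR-450a-5p at 0.05 (0.09 and -0.13). With 3 libraries, each likeness rests on 2 ratios. The summed miR-92-seed pattern is that of neither member: at 3 min the log2 ratio was 0.19 for miR-92a-3p and -0.03 for miR-25-3p. Reads of miR-25-3p per read of miR-92a-3p were 1.55, 1.32 and 1.59, with an odds ratio of 0.854 (0.796 to 0.917) for 3 min against control, 1.03 (0.943 to 1.12) for 5 min against control and 1.20 (1.10 to 1.31) for 5 min against 3 min.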

How the data were processed

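Small RNA was profiled in 3 SK-MEL-2 libraries, 1 per group. Per the labels' protocols, Trizol was used for extraction and a NEBNext kit for the libraries. The deposited values are raw read counts per mature miRNA. Bowtie2, bedtools and edgeR are named in the submitters' processing notes without version or role. Not given in the sources used here were genome build, annotation, trimming, multi-mapping and strand.

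TMM factors (edgeR 4.0.16, R 4.3.3) were computed over the 231 miRNAs averaging 20 counts or more. Ratios carry Clopper-Pearson 95% intervals, shares and odds ratios exact ones (Python 3.11.15, scipy 1.17.1). The size rule was 1.5-fold. The ratio step was tested on simulated data. Alternatives were DESeq2 1.42.0 size factors, other scalings and filters, and summed paralogs. All members were named. Further miRNAs were named when a listed one passed the filter or, outside the lists, was among the 3 nearest in pattern; others were named after their values were seen. Members and lists were chosen with earlier results of these data known. Sequences came from RefSeq, which matched 206 of the 231.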

Additional observations from a re-analysis of the deposited data

How the results depend on the processing

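With 1 library per group no replicate could be left out, and depth limits miR-18a-5p, miR-19a-3p, miR-19b-3p and miR-106b-5p most. No paired analysis was possible because each group has 1 library. No member that was 1.5-fold away from control changed direction, but medians and sums near 0 changed sign, as given below; the cause was not tested beyond the shift itself. Relative to the scaling used above, TMM over all listed miRNAs shifted every log2 ratio by -0.06 at 3 min, -0.17 at 5 min and -0.11 for 5 min against 3 min, and DESeq2 size factors over all listed miRNAs by -0.07, -0.21 and -0.14; other scalings shifted them by at most 0.03.

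The number of members at least 1.5-fold higher at 5 min, 2 above, was 1 with DESeq2 size factors over the filtered miRNAs, with the total less the 10 most abundant miRNAs and with near-identical paralogs summed, and 0 with TMM or DESeq2 over all listed miRNAs and at 2-fold. DESeq2 over all listed miRNAs put 1 member, miR-19a-3p, 1.5-fold lower.

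With TMM over all listed miRNAs the members' median log2 ratio was 0.0079 at 3 min, -0.20 at 5 min and -0.10 for 5 min against 3 min; with DESeq2 over all listed miRNAs it was -0.0081, -0.24 and -0.13. For 5 min against 3 min it was -0.0764 with a filter of 50 counts and with paralogs summed. Log2 ratios of the miR-17~92 sum were 0.15 at 3 min with DESeq2 over all listed miRNAs, -0.12 and -0.16 at 5 min with TMM and DESeq2 over all listed miRNAs, and -0.29 and -0.32 for 5 min against 3 min. For the miR-106b~25 sum they were -0.0665 and -0.0824, -0.29 and -0.32, and -0.22 and -0.24 in the 3 comparisons. For the miR-17-seed sum they were 0.12 and 0.0767 at 5 min, and -0.0407 and -0.0640 for 5 min against 3 min. For the miR-92-seed sum they were 0.0029 and -0.0130, -0.34 and -0.38, and -0.34 and -0.37. Without miR-19b-3p and miR-92a-3p, which also come from chromosome X, the miR-17~92 sum was at 0.42 at 5 min and 0.14 for 5 min against 3 min.

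Within the members' total, odds intervals above 1 went from 2 members to 1 at 3 min when miR-92a-3p or miR-25-3p was left out, and from 2 to 1 for 5 min against 3 min without miR-92a-3p. At 5 min those below 1 went from 2 to 1 when either was left out, since the member left out was itself one of the 2.

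Over all compared miRNAs, those at least 1.5-fold higher and lower numbered 16 and 12 at 3 min, 40 and 27 at 5 min, and 30 and 20 for 5 min against 3 min. A filter of 50 counts gave 7 and 3, 25 and 16, and 13 and 10. Without a filter, with zeros in 1 library called, there were 257 and 210, 412 and 215, and 401 and 216. The 2-fold rule gave 5 and 2, 22 and 8, and 15 and 2. DESeq2 over all listed miRNAs gave 42 lower at 5 min and 35 lower for 5 min against 3 min, where TMM over all listed miRNAs gave 31.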
